A study of Homo sapiens with 10 samples.

Results

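The fibroblast growth factor genes FGF18, FGF1, FGF2, FGF5, FGF9 and FGF21 and the receptor genes FGFR1, FGFR2, FGFR3 and FGFR4 were followed in PC-3 cells, an androgen-independent line from human prostate cancer, before and after exposure to luteolin and gefitinib. These 10 genes, of 30815 named on the array, were found by the gene name of each spot, control spots aside. FGF18 was chosen by its processed array signal, which was much higher in drug-treated than in DMSO-treated cells, so its values are given as a description, with no test. The other 9 genes were tested where their probes gave a signal.

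FGFs are secreted ligands that bind, together with heparan sulfate, to the receptor tyrosine kinases FGFR1 to FGFR4. The activated receptor phosphorylates the adaptor FRS2, which recruits GRB2 and SOS1 and turns on the RAS and MAP kinase cascade. Sprouty and SPRED proteins, IL17RD and the phosphatase DUSP6 are made in response to that cascade and restrain it, and FGFs made by tumor or stromal cells can act on prostate epithelium.

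Agilent 1-color expression arrays of the human genome gave the mRNA levels in 5 groups of 2 arrays each, labelled as biological replicates (10 in all). The groups were untreated PC-3 cells at 0 h, and cells kept for 24 h with DMSO, the vehicle, with 60 µM luteolin, a plant flavonoid, with 60 µM gefitinib, an inhibitor of the EGF receptor kinase, or with both drugs at 60 µM each. The drugs were dissolved in DMSO, so every 24 h group had received it, and all groups are the same cell line with no genetic change. Each group's level is compared with DMSO, which shares the vehicle and the time, and then with 0 h.

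The names of the scanner files of the 6 drug-treated arrays carry other treatments than their labels. The pair labelled luteolin is named for gefitinib, the pair labelled gefitinib for both drugs, and the pair labelled luteolin plus gefitinib for luteolin. The labels are used throughout, and every direction below that involves a drug holds for the pair so labelled.

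The promoters of FGF18, FGFR4 and DUSP6 are shown because they belong to genes with a large or shared difference on the gefitinib-labelled arrays. FGF18 and FGFR4 were both higher there, and DUSP6 was lower. Each is the 250 bases before a start site in the RefSeq annotation of GRCh38.p14, read 5′ to 3′ on the gene's strand, and 8 of the 10 genes had an entry in the promoter table used here. Capitals mark matches, on either strand, to 8 short motifs. They were the cAMP response element, TGACGTCA, the AP-1 site, TGANTCA, the E-box, CACGTG, the ETS site, CCGGAA, the GC box, GGGCGG, the CCAAT box, the TATA box, TATAAA, and the TCF/LEF site, CTTTGAT.
FGF18, chr5:171419397-171419646, plus strand: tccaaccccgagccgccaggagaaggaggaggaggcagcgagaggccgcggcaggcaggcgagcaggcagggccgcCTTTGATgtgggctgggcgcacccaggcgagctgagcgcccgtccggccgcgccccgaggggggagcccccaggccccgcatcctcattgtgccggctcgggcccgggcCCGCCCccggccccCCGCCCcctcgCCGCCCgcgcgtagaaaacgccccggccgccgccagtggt
FGFR4, chr5:177086665-177086914, plus strand: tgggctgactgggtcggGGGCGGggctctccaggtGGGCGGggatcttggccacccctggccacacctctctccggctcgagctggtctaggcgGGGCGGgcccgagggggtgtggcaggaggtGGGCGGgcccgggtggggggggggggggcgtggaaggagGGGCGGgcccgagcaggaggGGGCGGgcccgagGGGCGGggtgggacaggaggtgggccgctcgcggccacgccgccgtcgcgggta
DUSP6, chr12:89352502-89352751, minus strand: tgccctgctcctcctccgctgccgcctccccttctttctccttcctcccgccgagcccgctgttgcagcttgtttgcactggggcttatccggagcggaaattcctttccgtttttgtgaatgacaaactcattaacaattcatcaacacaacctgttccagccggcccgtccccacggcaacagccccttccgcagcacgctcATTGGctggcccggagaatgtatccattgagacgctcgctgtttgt

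The FGF18 window held 78.8% G and C, with GC boxes that start at -65, -51 and -40 from the start site and a TCF/LEF match that starts at -174. The GC box occurred in 42.6% and the TCF/LEF letters in 2.26% of the 35116 promoters of that length. The FGFR4 window, the first of 2 in the table, held 79.6% G and C and had 7 GC boxes and no other match. The DUSP6 window held 57.2% G and C and had 1 inverted CCAAT match, which 32% of all promoters had. No marked match overlapped another, and none of them is shown to be a site in these cells.

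Array signals are given as a percent of the 75th percentile of that array's own probes, on a linear scale. That percentile was 1177 to 1402 signal units at 0 h, 1283 to 1350 with DMSO, 1041 to 1173 on the luteolin arrays, 628.4 to 650.7 on the gefitinib arrays and 539.8 to 864.6 on the arrays with both drugs. Scaling therefore raises the values labelled gefitinib, and those labelled with both drugs, relative to the deposited signals. For members against DMSO, and for pathway genes called against DMSO, calls that changed with unscaled signals are given below. Gains of members against 0 h, and of pathway genes not called with scaling, were only counted. All 5 epithelial markers (KRT8, KRT18, KRT19, EPCAM and CDH1) were well above background on all 10 arrays. Of the other cell types a culture could hold, the defining genes PTPRC (leukocytes) and DCN (fibroblasts) were above background on no array, while the fibroblast markers COL1A1, LUM and PDGFRA were above it on 9, 8 and 7 of the 10 arrays. CD3E and CD14 of the 3 leukocyte markers and PECAM1 of the 3 endothelial ones were above it on all arrays.

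FGF18, a ligand of the FGF8 subfamily best known for its part in growing bone and cartilage, had 2 probes. The brighter one, for NM_003862 at chr5:170816574-170816633 of hg18, read 2.46% and 1.98% of the 75th percentile at 0 h and 2.96% and 1.88% with DMSO. It read 4.32% and 10.9% on the luteolin-labelled arrays, 122% and 76% on the gefitinib-labelled arrays, and 12% and 33% on those with both drugs. The ranges at 0 h and with DMSO overlapped, and every drug-treated array lay above all 4 of those arrays. Both gefitinib-labelled arrays lay above every other array. In RNA from whole cultures, a change in the number of cells that make a transcript and a change in transcript per cell cannot be told apart.

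Expressed as group means, the FGF18 level was 2.91-fold the DMSO level with luteolin, 40.9-fold with gefitinib and 8.42-fold with both drugs, and 1.07-fold the 0 h level with DMSO. On the log2 scale the SD between the 2 arrays was 0.22 at 0 h, 0.46 with DMSO, 0.94 with luteolin, 0.49 with gefitinib and 1.03 with both drugs. In order of level the groups ran gefitinib, both drugs, luteolin, DMSO and 0 h. DMSO and 0 h did not differ beyond their spread. The gap of 1.54 between luteolin and both drugs was above either SD, but the nearest arrays of those 2 groups read 10.9% and 12%. The mean with both drugs was 2.28 on the log2 scale below that with gefitinib.

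The size of the FGF18 difference varied between slides and with the background correction. No slide held more than 1 array of a group, so within a single group a slide effect and the spread between replicate arrays cannot be told apart. Slides 1 and 2 shared the DMSO, luteolin and both-drug groups, and a fit with the slide as a block is among the alternatives. Within slide 1, which held an array of each 24 h group, the log2 difference from DMSO was 0.55 with luteolin, 5.37 with gefitinib and 2.02 with both drugs. Within slide 2, which held no gefitinib array, it was 2.53 with luteolin and 4.13 with both drugs. Against DMSO, the gefitinib-labelled value of 5.35 became 3.83 with normexp background correction, which added 50 units to every signal, and 4.31 with unscaled signals. The deposited signal of this probe was 23.3 to 39.9 units on the 0 h and DMSO arrays, and was marked well above background on all 10 arrays.

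The dimmer FGF18 probe lay between chr5:170795863 and chr5:170808795 of hg18, its ends 12933 bases apart, and so was split by an intron. It was well above background on 3 of 10 arrays, both labelled gefitinib, at 10.4% and 6.02%, and 1 with both drugs, at 4.69%. The remaining arrays read 0.418% to 2.44%. With the arrays below background set to the lowest signal that counted as above it, the gefitinib-labelled level was at least 4.41-fold the DMSO level and at least 5.39-fold the 0 h level. The same group was thus highest on probes to separate stretches of the transcript.

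Sums over the marker lists given here also differed between groups. The 3 leukocyte markers summed to 8.18% to 8.88% with DMSO, 7.36% to 11.2% with luteolin, 21.4% to 26.9% with gefitinib and 15% to 19.7% with both drugs. PTPRC, the marker of all leukocytes, was at background. At 0 h these markers summed to 8.5% to 16.1%, which overlaps the range with both drugs. The 3 endothelial markers summed to 7.07% to 11.1% with DMSO and 13.8% to 26.5% with luteolin. They were 7.58% to 8.62% with gefitinib and 6.26% to 10.2% with both drugs. Their range at 0 h, 8.17% to 19.3%, overlaps that with luteolin. The 5 fibroblast markers were lower with gefitinib, at 13.4% to 15.5% against 28.5% to 34% with DMSO, and the 5 epithelial markers were lower with both drugs, at 5760% to 9300% against 12000% to 13500%. The part of these differences in the FGF18 values was not tested.

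**Figure D1:**
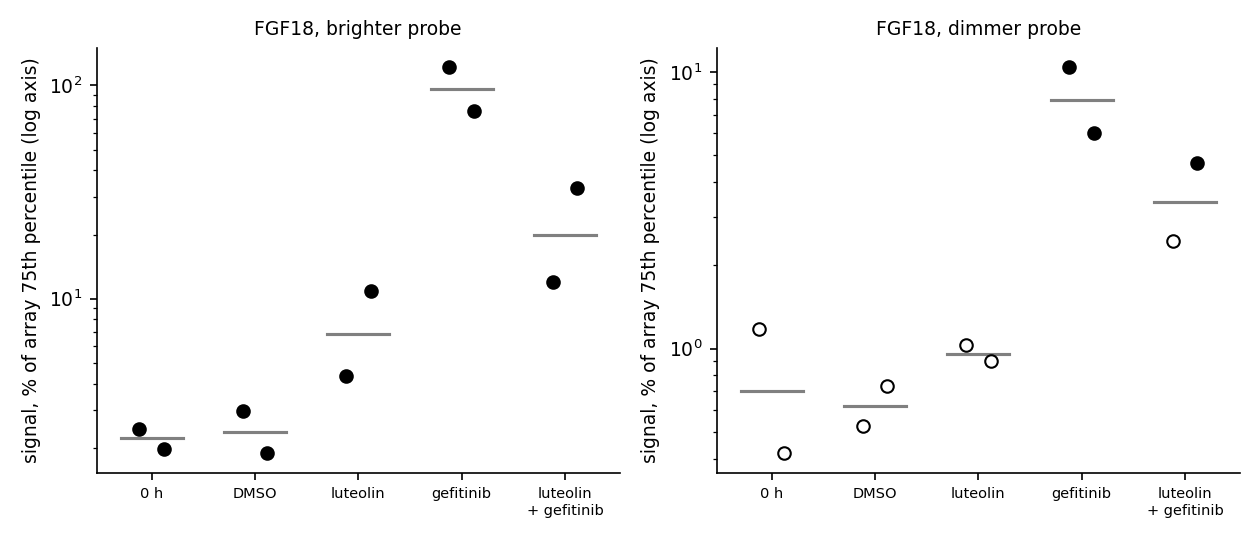
FGF18 signal on each array as a percent of the array's 75th percentile, on log axes, for the brighter (left) and dimmer (right) probe. Filled points were well above background and open points were not, and grey lines are group means on the log scale; both gefitinib-labelled arrays are the highest in each panel.

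FGF1, the acidic FGF that can bind all FGF receptors together with heparan sulfate, differed from DMSO in opposite directions on the luteolin-labelled and gefitinib-labelled arrays. Its brightest probe, for NM_000800 at chr5:141955101-141955160 of hg18 on the minus strand, read 27% and 27.6% at 0 h and 13.9% and 16% with DMSO. It read 6.25% and 4.47% on the luteolin-labelled arrays, 37.4% and 34.8% with gefitinib, and 7.77% and 15% with both drugs. The luteolin arrays were the lowest and the gefitinib arrays the highest, with no overlap with DMSO.

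FGF1 fell by 1.49 on the log2 scale against DMSO with luteolin (95% interval -2.18 to -0.81, limma, Benjamini-Hochberg adjusted p = 0.00912). FGF1 rose 2.42-fold against DMSO with gefitinib (log2 1.28, 0.59 to 1.96, limma adjusted p = 0.00842). The groups labelled with the single drugs thus lay on opposite sides of DMSO, and the test between them gave a log2 difference of 2.77 (2.08 to 3.46, limma adjusted p = 0.000212). With both drugs the difference from DMSO was -0.46 (-1.15 to 0.22, limma adjusted p = 0.24), with 1 array below the DMSO range and 1 within it. Unscaled, that difference was -1.41 and was called (limma adjusted p = 0.00408). Within slide 1 the difference was -1.15 with luteolin, 1.43 with gefitinib and -0.84 with both drugs, and within slide 2 it was -1.84 with luteolin and -0.09 with both drugs.

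The other 3 FGF1 probes lay within the same stretch of hg18 (chr5:141953631 to chr5:141955055). On all 4 probes the gefitinib-labelled value was called against DMSO, with log2 changes of 1.20 to 1.94. The largest of these came from a probe below background on both DMSO arrays, where the level with gefitinib was at least 2.99-fold that with DMSO. The luteolin value was called on 2 of the 4, and on the others it was -1.17 and -0.92. The luteolin call was lost without DMSO replicate 2 (limma adjusted p = 0.0651) and without luteolin replicate 2 (0.0745), and normexp gave -0.80. The gefitinib call was lost without DMSO replicate 1 (adjusted p = 0.0512, limma) and with unscaled signals, where the change was 0.23.

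FGF2, the basic FGF, a ligand with broad mitogenic action on stromal and epithelial cells, was printed as 1 probe in 10 spots (NM_002006, chr4:124038472-124038531 of hg18). Its level was 132% and 163% at 0 h, 107% and 142% with DMSO, 131% and 142% with luteolin, 141% and 130% with gefitinib, and 63.5% and 120% with both drugs. The 0 h, DMSO, luteolin and gefitinib ranges overlapped, and both arrays with both drugs lay below all 0 h, luteolin and gefitinib arrays. Against DMSO the log2 differences were 0.14 (95% interval -0.53 to 0.81), 0.13 (-0.54 to 0.80) and -0.50 (-1.17 to 0.17) in that order of drugs, and FGF2 was called in none of the 10 comparisons. With unscaled signals the value with both drugs was -1.45 and passed the test (limma adjusted p = 0.00208).

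FGF5, a ligand known as a brake on hair growth, is also made by some tumors. By its brightest probe, but not by a second one, it was lower on every drug-treated array than on the DMSO and 0 h arrays. Its brightest probe (NM_004464, chr4:81426830-81426889 of hg18) read 17.3% and 15.9% at 0 h, 10.7% and 11.1% with DMSO, 5.98% and 5.36% with luteolin, 6.25% and 9.04% with gefitinib, and 5.52% and 2.25% with both drugs. The lowest of these, replicate 2 with both drugs, was not well above background.

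FGF5 fell by 1.62 on the log2 scale against DMSO with both drugs (95% interval -2.47 to -0.77, limma adjusted p = 0.0114). The luteolin and gefitinib values, -0.94 (limma adjusted p = 0.1) and -0.53 (0.254), were not called, but the latter was -1.57 with unscaled signals and was called (limma adjusted p = 0.0331). A second FGF5 probe was also called with both drugs, at -1.27 (limma adjusted p = 0.00986), and read 0.26 with gefitinib, and the third was above background on no array. Within slides 1 and 2 the difference with both drugs was -0.95 and -2.30. The call was lost without DMSO replicate 1 (limma adjusted p = 0.0548), without DMSO replicate 2 (0.0611), without replicate 2 of both drugs, where the change was -0.98, and with normexp, where it was -0.28.

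FGF9, a ligand with roles in the developing skeleton and gonad, and FGF21, an endocrine FGF made chiefly by the liver, were not well above background on any of the 10 arrays. Their single probes read 0.442% to 1.69% and 0.335% to 1.57% of the 75th percentile. They were not tested, and no level or fold is given for them.

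**Figure D2:**
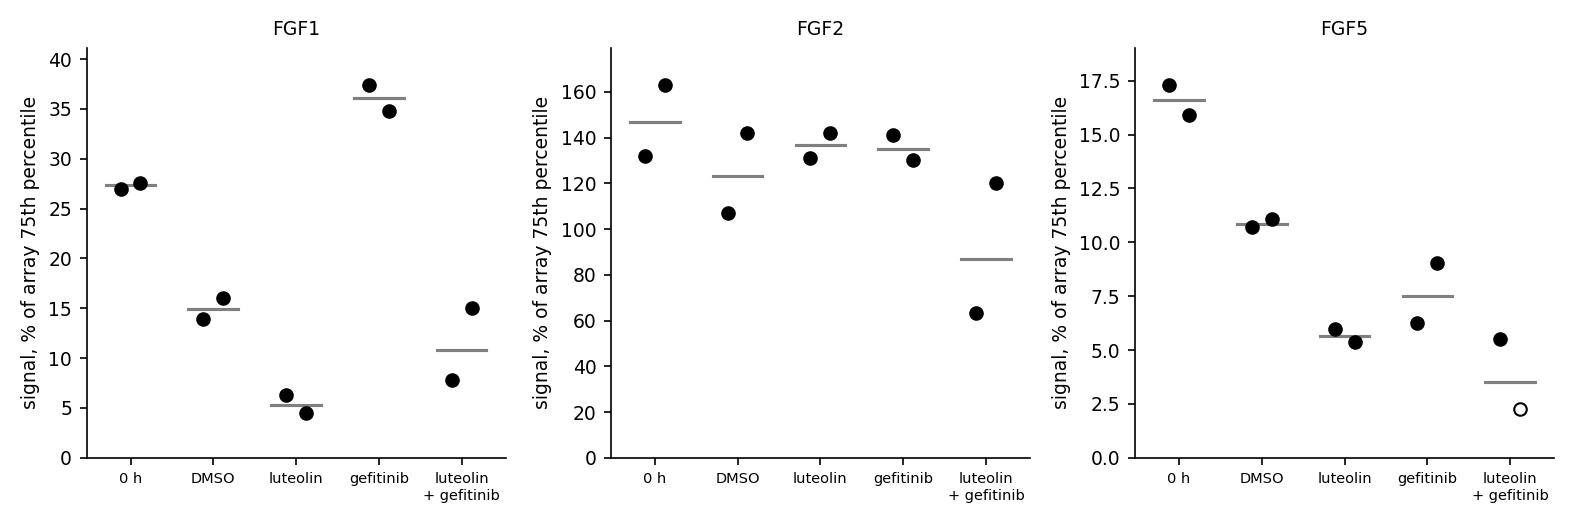
FGF1, FGF2 and FGF5 signal on each array as a percent of the array's 75th percentile (linear axes from 0, brightest probe). Filled points were well above background, the open point was not, and grey lines are group means on the log scale; FGF1 is lowest on the luteolin-labelled pair and highest on the gefitinib-labelled pair.

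FGFR1, the receptor found on many mesenchymal and tumor cells, had a clear signal throughout. Its brightest probe (NM_023110) read 165% and 141% at 0 h, 110% and 106% with DMSO, 90.4% and 97.9% with luteolin, 221% and 252% with gefitinib, and 113% and 146% with both drugs. The gefitinib-labelled arrays were above all others. FGFR1 rose 2.18-fold against DMSO on them (log2 1.12, 95% interval 0.71 to 1.54, limma adjusted p = 0.00203), and within slide 1 the difference was 1.00.

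With luteolin the FGFR1 difference from DMSO was -0.20 (-0.62 to 0.21) and with both drugs 0.24 (-0.17 to 0.66), and neither was called. The 4 further FGFR1 probes that were kept read 0.62 to 0.96 above DMSO with gefitinib, all in the same direction and under the 2-fold threshold, and a sixth probe was above background on no array. The median over probes gave 0.83, and unscaled signals gave 0.08, where the call was lost (limma adjusted p = 0.809).

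FGFR2, whose splice forms mark epithelial or mesenchymal cells, had 3 probes, of which the brightest was above background on 4 of 10 arrays and on both arrays of no group. It read 1.42% to 4.06%, was not tested, and is given no fold.

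FGFR3, a receptor that FGF18 can activate, had 1 probe above background on both 0 h arrays, at 1.74% and 2%, and on DMSO replicate 2, at 2.08%. The remaining arrays were below background, with 1.62% on DMSO replicate 1, 0.431% and 0.767% with luteolin, 2.03% and 1.64% with gefitinib, and 0.46% and 1.37% with both drugs. The luteolin value passed the test against DMSO (limma adjusted p = 0.0337), but the 0 h and DMSO signals were too near the background for any lower limit of a fold. The call was lost without any 1 of the 0 h, DMSO or luteolin arrays (limma adjusted p = 0.0516 to 0.167) and with no filter on dim probes (0.0689). Unscaled, FGFR3 passed the test against DMSO with gefitinib and with both drugs (limma adjusted p = 0.0309 and 0.00217), where all 4 arrays were below background.

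FGFR4, a receptor for FGF19 and other FGFs on epithelial cells, had a single probe (NM_213647, chr5:176455727-176455786 of hg18) that was above background on all 10 arrays. It read 8.6% and 7.67% at 0 h, 10.3% and 9.32% with DMSO, 9.04% and 8.68% with luteolin, 17.3% and 14.1% with gefitinib, and 13% and 16.2% with both drugs. The 4 arrays that had received gefitinib by their labels lay above the other 6. Against DMSO the FGFR4 value was 1.59-fold with gefitinib (log2 0.67, 0.25 to 1.09, limma adjusted p = 0.015) and 1.48-fold with both drugs (0.57, 0.15 to 0.99, 0.037), under the 2-fold threshold. The direction turned with unscaled signals, to -0.37 and -0.38.

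**Figure D3:**
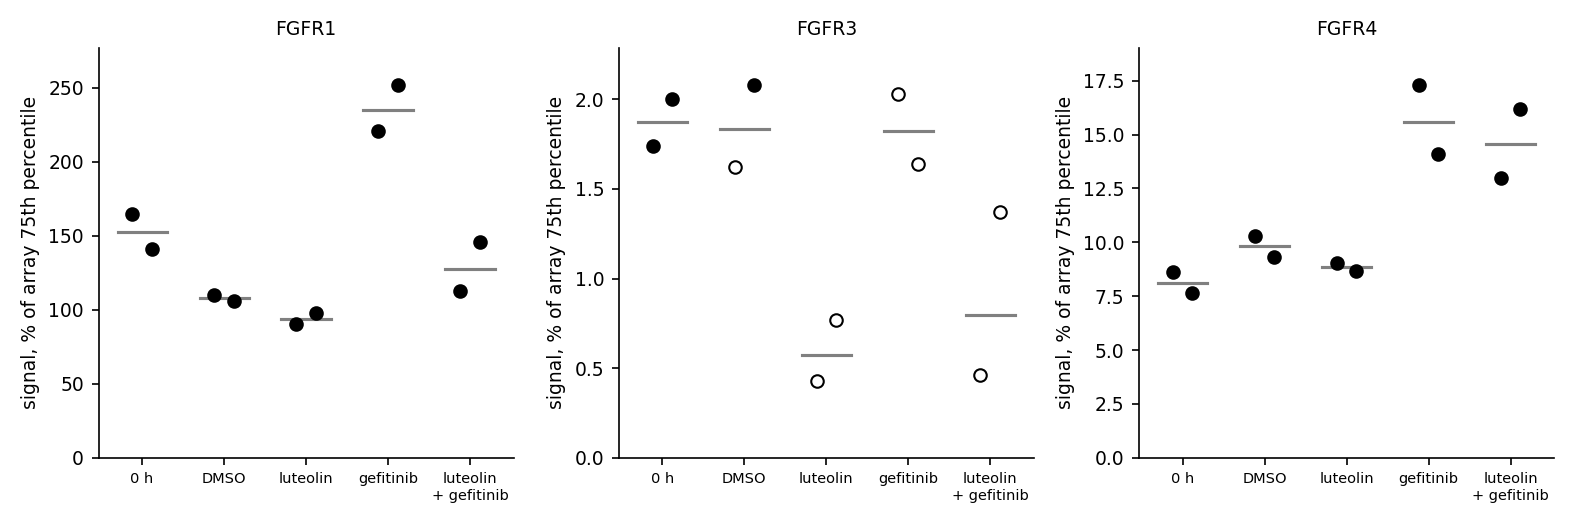
FGFR1, FGFR3 and FGFR4 signal on each array as a percent of the array's 75th percentile (linear axes from 0, brightest probe). Filled points were well above background and open points were not, and grey lines are group means on the log scale; FGFR3 stays near the background on all arrays.

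Of the 10 genes, 7 had a probe kept for the tests, that is, one above background in both replicates of some group, and a gene could pass through the group in which it was high. Apart from FGF18, the 6 tested were FGF1, FGF2, FGF5, FGFR1, FGFR3 and FGFR4, called where the Benjamini-Hochberg adjusted p was under 0.05 and the groups differed 2-fold or more. With luteolin 2 of the 6 were called against DMSO, both lower (FGF1 and FGFR3), where 13.4% of all 19718 genes tested were called and 6.17% were lower. With gefitinib 2 of the 6 were called, both higher (FGF1 and FGFR1), where 29.9% of all genes were and 15.6% were higher. With both drugs 1 of the 6 was called, FGF5, lower, where 19.8% were and 7.69% were lower. These shares rest on 6 genes. FGFR3 passed the filter only through its 0 h arrays and has no measured level with luteolin, so FGF1 is the only call there with a measured fold. The median log2 difference of the 6 was -0.57, 0.40 and -0.48, beside 0.08, 0.22 and 0.16 over all genes.

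**Figure D4:**
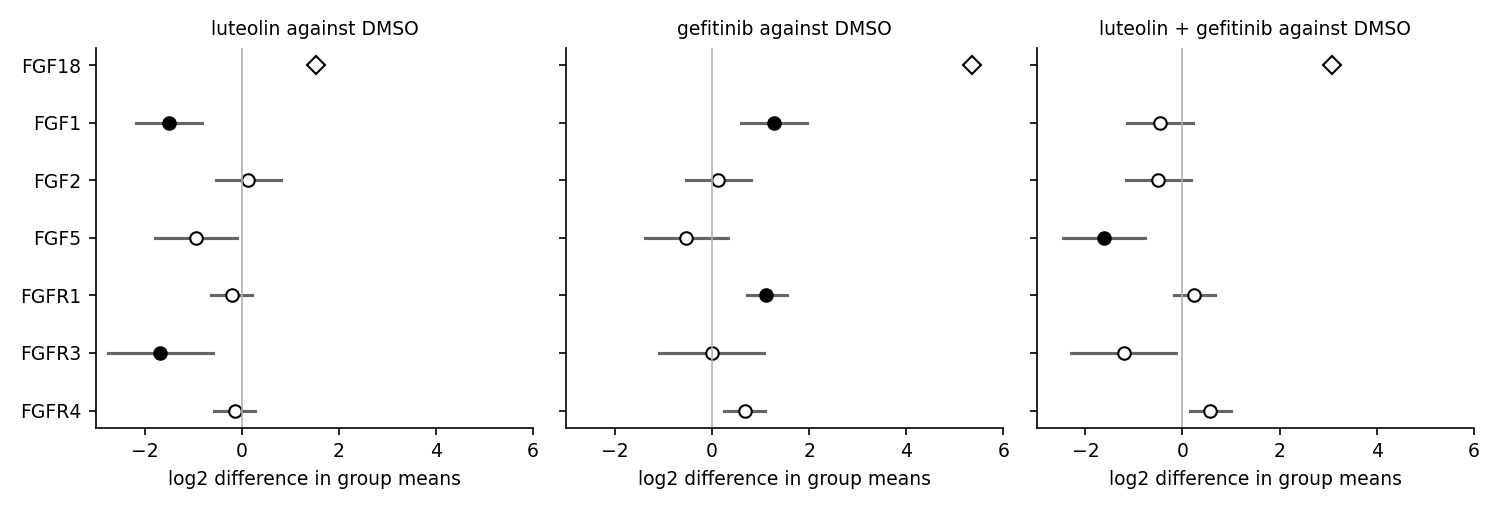
Log2 differences from DMSO of the FGFs and receptors in each drug-labelled group (brightest probe). Circles carry 95% intervals from limma and are filled where called; FGF18, drawn as a diamond, has no interval because it was chosen for its difference. FGF18 lies to the right of 0 in all 3 panels, whereas FGF1 is left of 0 with luteolin and right of 0 with gefitinib.

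Against 0 h, DMSO had few calls, as limma called 0 of the 6 genes, the 1-sample t-test of the methods called 0, and 0.0355% of all genes were called. At an unadjusted p under 0.05, 2 of the 6 passed. They were FGF1 at -0.88 (limma adjusted p = 0.666), whose 2 DMSO arrays were both below both 0 h arrays, and FGFR1 at -0.49 (limma adjusted p = 0.708). All 4 FGF1 probes were lower with DMSO, by log2 values of -0.85 to -1.67. The probe at -1.67 (limma adjusted p = 0.261) was below background on both DMSO arrays, and its 0 h level was at least 2.47-fold higher.

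By their brightest probes, FGF1 (-0.88) and FGF5 (-0.61, limma adjusted p = 0.954) read lower with DMSO than at 0 h, and neither was called. Their differences from 0 h were therefore shifted downward relative to those from DMSO. The 0 h and DMSO comparisons share the drug-treated arrays, so each is given by its own values. Against 0 h, FGF1 fell by 2.37 with luteolin (limma adjusted p = 0.00118) and by 1.34 with both drugs (limma adjusted p = 0.0104), and with gefitinib it was 0.40 (limma adjusted p = 0.286). FGF5 fell against 0 h by 1.55 with luteolin, by 1.14 with gefitinib and by 2.24 with both drugs (limma adjusted p = 0.0158, 0.0307 and 0.00358). The second FGF5 probe was also called lower with luteolin and with both drugs. With gefitinib that probe was -0.58 and was not called (limma adjusted p = 0.109). The FGF1 call with both drugs was lost without 0 h replicate 2 (limma adjusted p = 0.0528) and without replicate 1 of both drugs (-0.86). The FGF5 call with luteolin was lost without any 1 of the 0 h or luteolin arrays (limma adjusted p = 0.0513 to 0.091) or unscaled (0.0537), and that with gefitinib without either 0 h array (0.11 and 0.0887) or gefitinib replicate 1 (-0.88), or with quantile normalization (0.0597).

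Against 0 h in all, 3 of the 6 genes were called with luteolin, 1 with gefitinib and 2 with both drugs, all lower, where 16.1%, 29% and 19.8% of all genes were called and 7.85%, 14.5% and 8.32% were lower. FGFR3 was the third of these with luteolin, from arrays near the background, and its call was lost without either 0 h array (limma adjusted p = 0.0948 and 0.113) or luteolin replicate 1 (0.147). FGFR4 passed the adjusted p with gefitinib at 0.94 (limma adjusted p = 0.00388) and with both drugs at 0.84 (0.00923), under the 2-fold threshold. FGF18 stood at 1.64, 5.45 and 3.17 above 0 h on the log2 scale with luteolin, gefitinib and both drugs.

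Between the drug-treated groups, FGF1 and FGFR1 (1.33, limma adjusted p = 0.000572) were higher with gefitinib than with luteolin, and FGFR3 passed the test too, making 3 of the 6, where 36.6% of all genes were called and 18.5% were higher. The FGFR1 value was 0.54 with unscaled signals and not called (limma adjusted p = 0.107). FGFR3 was below background on all 4 of those arrays, so no direction is given for it, and its call was lost without luteolin replicate 1 (limma adjusted p = 0.1) and gefitinib replicate 1 (0.0719). With both drugs, FGF1 alone was called against luteolin (1.03, limma adjusted p = 0.026), where 21% of all genes were and 11.3% were higher, and that call was lost without luteolin replicate 2 (0.79), without replicate 2 of both drugs (0.56), with unscaled signals (0.34) and with quantile normalization (0.89). Against gefitinib, FGF1 fell by 1.74 with both drugs (limma adjusted p = 0.00212) and FGF5 fell by 1.09 (limma adjusted p = 0.0405), where 27% of all genes were called and 9.76% were lower. The FGF5 call was lost without any 1 of 8 arrays, at log2 values of -0.45 to -1.09 (limma adjusted p = 0.0571 to 0.188), with the slide as a block (log2 -0.84) and unscaled (limma adjusted p = 0.19).

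The rest of the pathway was read from 58 genes in 6 lists, chosen with earlier results of these data known: other FGF ligands, co-receptors and FGF-binding proteins, heparan sulfate carriers and enzymes, adaptors and signal relays, feedback inhibitors, and ETS transcription factors. Of these, 39 were tested. Against DMSO, 2 were called with luteolin, 1 in each direction, 12 with gefitinib, 2 higher and 10 lower, and 5 with both drugs, 2 higher and 3 lower. The median log2 difference was 0.00, 0.10 and -0.10 over the 39 genes, beside 0.08, 0.22 and 0.16 over all genes. Of all genes, 7.22%, 15.6% and 12.1% were called higher and 6.17%, 14.3% and 7.69% lower. DMSO against 0 h had 0 of the 39 called by limma and 6 at an unadjusted p under 0.05.

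The feedback inhibitors of the MAP kinase cascade were lower on the gefitinib-labelled arrays, with 5 of 7 tested called lower against DMSO, where 14.3% of all genes were called lower, and a median log2 difference of -1.36. Against 0 h, 3 of the 7 were called lower with gefitinib, with a median of -0.8, where 14.5% of all genes were called lower. Their median for DMSO against 0 h was 0.54, with 0 called. DUSP6, the phosphatase that switches off ERK, read 1500% and 1320% of the 75th percentile with DMSO, 1270% and 1230% with luteolin, 119% and 86.7% with gefitinib, and 972% and 578% with both drugs. Against DMSO, DUSP6 fell by 3.79 with gefitinib (95% interval -4.39 to -3.2, limma adjusted p = 7.45e-05). With both drugs it was -0.91 on the scaled signals, under the 2-fold threshold. Its unscaled value there was not followed, but the 75th percentile was lower on those arrays than with DMSO, so the unscaled fall is larger. Both gefitinib-labelled arrays lay below all others, and those with both drugs lay below the DMSO arrays.

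SPRY1, a Sprouty inhibitor of receptor kinase signaling, read 126% and 99.1% with DMSO and 36.2% and 18.9% with gefitinib (log2 -2.09, limma adjusted p = 0.00458). SPRY4 (-1.51), SPRED1 (-1.36) and IL17RD (-1.04), which restrain the same cascade, were called lower too. The SPRY4 call was lost without DMSO replicate 1 (limma adjusted p = 0.0543) and that of IL17RD without gefitinib replicate 1, where it was -0.74. SPRED2 at -0.91 and SPRY2 at -0.32 were not called. With luteolin 0 of the 7 were called by limma, where SPRY2 alone had an adjusted p under 0.05 (0.88, limma adjusted p = 0.0443). With both drugs SPRED1 alone was called on the scaled signals, at -1.51 (limma adjusted p = 0.00242).

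**Figure D5:**
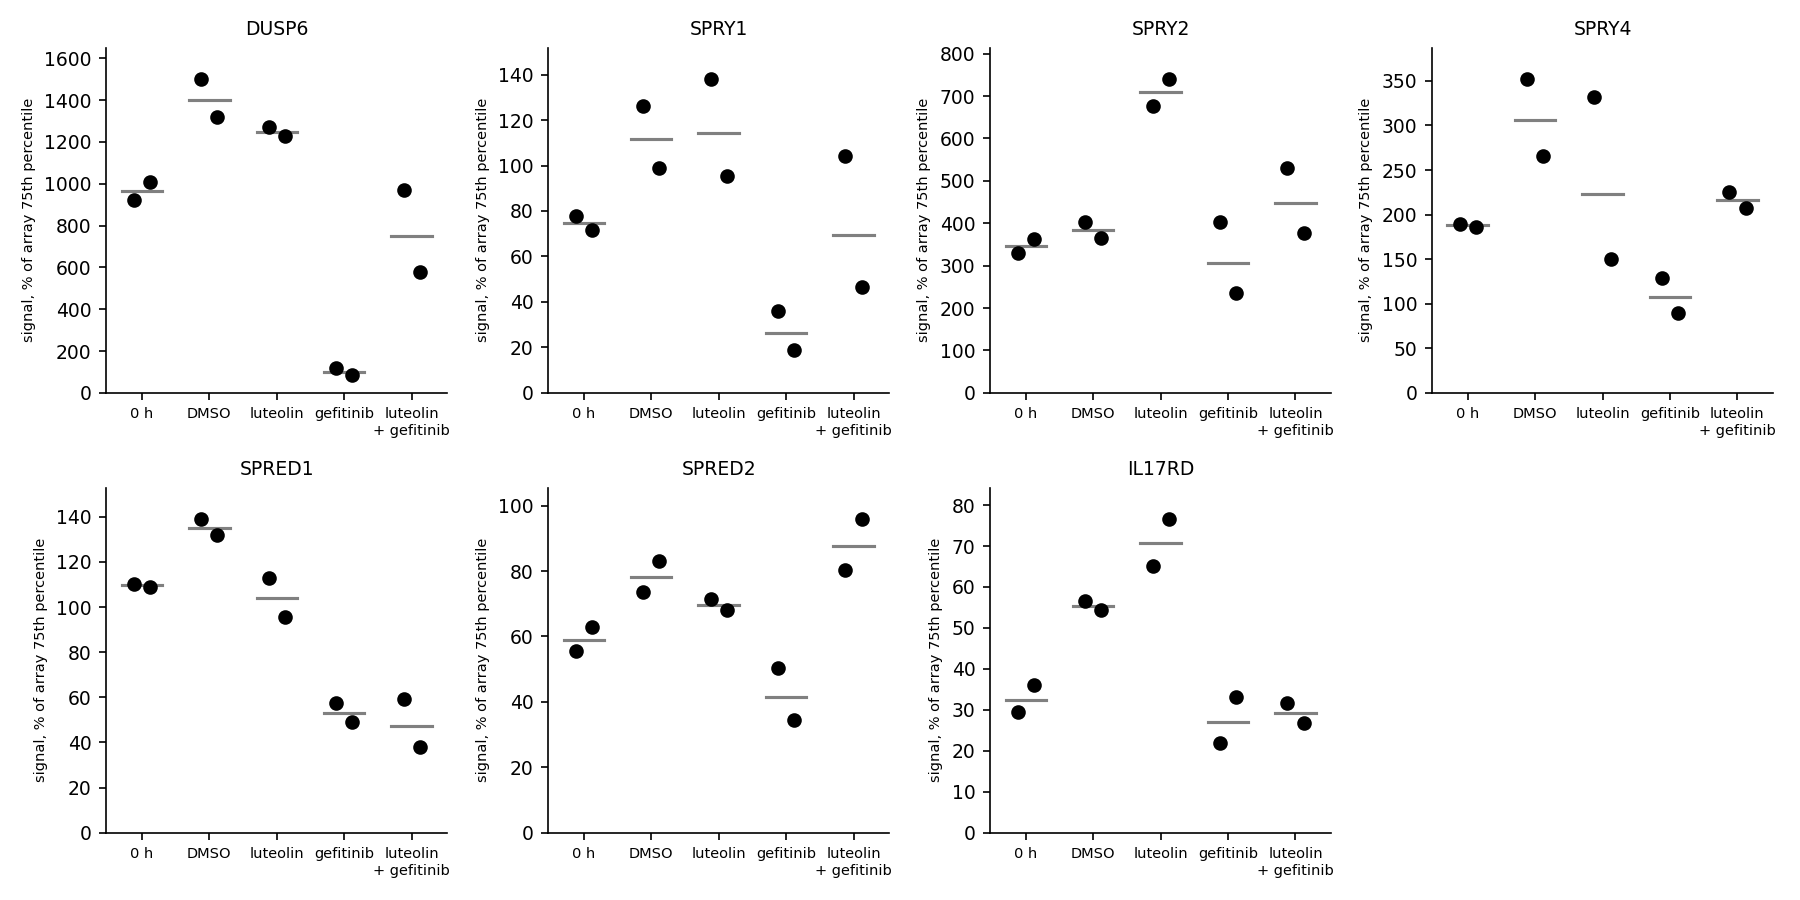
Signal of 7 feedback inhibitors on each array as a percent of the array's 75th percentile (linear axes from 0, brightest probe; grey lines are group means on the log scale). DUSP6, SPRY1, SPRY4, SPRED1 and IL17RD were called lower on the gefitinib-labelled arrays than with DMSO.

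Among the other FGF ligands, 3 of 16 were tested and 9 were above background on no array. FGF13, an intracellular relative of the FGFs that does not act through their receptors in the usual way, read 25.7% and 29.6% with DMSO, 96.4% and 102% with luteolin, and 9.33% and 18.2% with both drugs. FGF13 rose 3.6-fold with luteolin (limma adjusted p = 0.00296). On the gefitinib-labelled arrays it was 0.98 above DMSO on the log2 scale (limma adjusted p = 0.0187), under the 2-fold threshold. It fell by 1.08 with both drugs (limma adjusted p = 0.0178). The latter call was lost without either DMSO array (limma adjusted p = 0.0625 and 0.1) and without replicate 1 of both drugs, where it was -0.60. FGF3, a secreted ligand of development, read 227% and 215% with DMSO and 489% and 629% with gefitinib (2.51-fold, limma adjusted p = 0.00394), and with unscaled signals it was 0.28 and not called. FGF20 passed the filter through its 0 h and DMSO arrays and was below background with luteolin and gefitinib. It is counted among the calls lower in both, but the measured lower limits, at least 1.47-fold and at least 1.05-fold higher with DMSO, do not reach 2-fold.

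The carrier FGFBP1, which releases FGFs from the matrix, read 512% and 638% with DMSO and 231% and 294% with gefitinib (log2 -1.13, limma adjusted p = 0.00621), after 1340% and 1680% at 0 h, where DMSO against 0 h was -1.39 (limma adjusted p = 0.165). That call was lost without DMSO replicate 2 (-0.97) and without gefitinib replicate 1 (-0.96). Of 14 heparan sulfate genes tested, NDST2 (-2.52, limma adjusted p = 0.000468), an enzyme that places sulfate groups, was called lower with gefitinib, as was a probe named HS6ST1 (-1.18, limma adjusted p = 0.00556). The latter lies on chromosome 1 of hg18, and the probe for NM_004807, also named HS6ST1, on chromosome 2, so whether the bright probe reads HS6ST1 is uncertain. The NM_004807 probe was above background on 8 of 10 arrays. A second NDST2 probe went the other way, from 54% and 50.2% with DMSO to 84.8% and 91.5%. HS2ST1 was called higher with both drugs (1.02, limma adjusted p = 0.0192), and 2 of its dimmer probes were lower there. The median over its probes gave -0.91, and the call was lost with unscaled signals (0.07), with quantile normalization (0.29), and without either DMSO array or replicate 2 of both drugs (limma adjusted p = 0.0637 to 0.107). The call of the bright HS6ST1 probe was lost without gefitinib replicate 1 (-0.97).

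Of 9 adaptors, FRS2, which docks on the FGF receptor, rose 2.08-fold with gefitinib (limma adjusted p = 0.00657) and 2.65-fold with both drugs (limma adjusted p = 0.00358). Its level went from 11.6% and 8.86% with DMSO to 20.2% and 22.1%, and to 26.1% and 27.8%. The gefitinib call was lost with the slide as a block (0.82), without DMSO replicate 2 (0.86) and without gefitinib replicate 2 (0.99), and with unscaled signals FRS2 was 0.01 with gefitinib and 0.46 with both drugs. SOS1, the exchange factor for RAS, fell by 1.23 with gefitinib (limma adjusted p = 0.00612), was below background on 1 of those arrays, and was not called without gefitinib replicate 1 (-0.84). ETV4, an ETS factor induced by FGF signaling, fell by 1.18 with both drugs (limma adjusted p = 0.0016), and ETV1 and ETV5 were called in no drug group against DMSO.

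The genes whose pattern over the 10 arrays was most like that of FGF18, by Pearson's r of log2 values, were ENST00000325151, BC034617, HRAS, PER1 and NPDC1, at r of 0.997 to 0.998. As 1326 of 19702 genes had r above 0.9, such likeness was common, and the 10 points share arrays and groups. PER1, a circadian clock gene, had group means of 23.5% at 0 h, 30.8% with DMSO, 46.5% with luteolin, 111% with gefitinib and 73.4% with both drugs. Among the members, r with FGF18 was 0.879 for FGFR1, 0.797 for FGFR4, 0.618 for FGF1, 0.361 for FGF2, 0.339 for FGFR3 and -0.479 for FGF5.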

How the data were processed

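Each array had a scanner file of Agilent Feature Extraction (version 10.7.3.1 per the file headers). The deposited intensity values are the scanner software's processed signals, linear and background-subtracted, which the authors had not scaled between arrays. The series' value table held the same signal for 45015 of 45015 spots, and 0 columns were left unused. Control spots and outlier spots were left out, repeat spots were averaged as log2 values, and each array's 75th percentile was subtracted. A probe was kept if both replicates of 1 or more groups were well above background, which 28776 of 41000 were. Of the 24 member probes 16 were kept. A gene was represented by its brightest kept probe.

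A limma (3.58.1, R 4.3.3) model of 5 groups was fitted to all 10 arrays, with Benjamini-Hochberg adjustment over all probes kept, and was tested on simulated data. Genes called had an adjusted p under 0.05 and a 2-fold change. Precision is limited by having 2 arrays a group, and the p-values measure only the spread between these arrays. For each probe the fit shares 1 estimate of the spread over all groups, as did the simulated data. The median SD of a probe between the 2 arrays was 0.0907 with DMSO and 0.255 with both drugs. Intervals and p-values that involve both drugs can therefore be too small. The members and lists were chosen with earlier results of these data known. All members, the list genes called against DMSO and the 5 genes most like FGF18 are named, with uncalled list genes beside them for contrast. Alternatives were another background correction, scaling, filter, block, test or treatment map, and leaving out each array. One further marker list is not reported here. Probe positions are those of the files, on hg18. No genome of that build was used here, so exons and introns are not given beyond the split probe.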

Additional observations from a re-analysis of the deposited data

How the results depend on the processing

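Alternatives changed 1 choice at a time, except the unadjusted t-test, which changed the test and the adjustment. Of the FGF, receptor and pathway gene values, 1008 stayed the same, 170 lost a call, 12 gained one and 38 changed sign. The same means an unchanged direction and side of the thresholds or, for FGF18, which had no test, a move below the SD between replicates. A run on the series' value table, which held the same signals, could change nothing. Leaving out an array of a group not compared could change the p-value but not the log2 difference. The count of unchanged values includes both kinds and so does not measure how stable the values are. A further 10 FGF18 values moved by more than that SD. Among them, with normexp, were 1.91 with both drugs against DMSO and 3.92 with gefitinib against 0 h. FGF18 values of gefitinib against DMSO are not in these counts and are given below.

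Counts of members called are given in the order luteolin, gefitinib and both drugs against DMSO (2, 2 and 1 in the report), the same against 0 h (3, 1 and 2), then gefitinib against luteolin (3), both drugs against luteolin (1) and against gefitinib (2). With normexp they were 0, 2 and 0 against DMSO, 1, 0 and 0 against 0 h, and 2, 0 and 1 between drugs, and by the adjusted t-test of the methods all 9 counts were 0. Unadjusted, that test gave 0, 1 and 0 against DMSO, 1, 0 and 0 against 0 h, and 0 for both drugs against either drug. Without the filter on dim probes the counts were 1 and 4 for luteolin and gefitinib against DMSO, 2 for gefitinib against 0 h, and 0 and 1 for both drugs against luteolin and gefitinib. With probes above background on all arrays they were 1 and 0 for luteolin and both drugs against DMSO, 1, 0 and 1 against 0 h, and 1 for both drugs against gefitinib. With the treatments of the file names they were 1 and 2 for luteolin and both drugs against DMSO, 3 and 1 for gefitinib and both drugs against 0 h, 1 for gefitinib against luteolin and 2 for both drugs against luteolin. With no minimum fold both drugs gave 2 against DMSO and 2 against luteolin, and gefitinib 3 against 0 h. The median over probes gave 1 for gefitinib against DMSO, 0 for gefitinib against 0 h and 0 for both drugs against luteolin. Quantile normalization gave 2 for both drugs against DMSO and 0 against luteolin. Fitting only the groups compared gave 0 and 1 for both drugs against luteolin and gefitinib. The slide as a block gave 2 for both drugs against DMSO. Unscaled signals, an alternative chosen after seeing the data, gave 4 for both drugs against DMSO, 3 and 5 for gefitinib and both drugs against 0 h, and 1 for gefitinib against luteolin.

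Replicate numbers were not taken as pairing the samples (correlations -0.0976 to 0.293, with 6 of 10 pairs of groups over 0.1). All arrays numbered 1 but that at 0 h shared slide 1, and all numbered 2 but that of gefitinib shared slide 2. The replicate block gave 2 members called for both drugs against DMSO, FGF5 and FGFR3 (-1.21, limma adjusted p = 0.0445), and changed no other count by over 1.5 times.

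Pathway genes called against DMSO numbered 2, 12 and 5 with luteolin, gefitinib and both drugs. With normexp luteolin had 1 and both drugs 3, with probes above background on all arrays luteolin had 1, and with only the groups compared both drugs had 3. The file names gave 5, 2 and 12, no minimum fold 6, 19 and 10, and unscaled signals 18 with both drugs. The unadjusted t-test gave 3 with gefitinib and 1 with both drugs, and the adjusted one 0, 0 and 0.

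Leaving out 1 array, where a lone array is assumed to vary like the other groups, gave 0 to 2, 1 to 2 and 0 to 1 members against DMSO, 1 to 3, 0 to 2 and 1 to 4 against 0 h, 2 to 3 for gefitinib against luteolin, and 0 to 3 and 1 to 4 for both drugs against luteolin and gefitinib. DMSO against 0 h gave 0 throughout. Pathway counts ran from 2 to 4, 10 to 14 and 3 to 7. The FGF18 difference between gefitinib and DMSO ran from 5.01 to 5.70. It was 3.83 with normexp, 4.51 with the median over probes, 4.31 unscaled and 1.54 with the file names.

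Signs changed on the log2 scale as follows. With the file names, FGF2, FGFR1 and FGFR4 against DMSO were -0.50, 0.24 and 0.57 with luteolin, FGF1, FGFR1 and FGFR4 were -1.49, -0.20 and -0.14 with gefitinib, and FGF2 and FGF1 were 0.13 and 1.28 with both drugs. FGF13 was then -1.08 with luteolin and 0.98 with both drugs, and FRS2, SOS1, NDST2, IL17RD and SPRY1 were -0.17, 0.27, 0.04, 0.35 and 0.04 with gefitinib. FGF1 with both drugs against 0 h was 0.40, FGF1, FGFR1 and FGFR3 for gefitinib against luteolin were -1.03, -0.45 and -0.47, and FGF1 and FGF5 for both drugs against gefitinib were 2.77 and 0.41. Unscaled, FGF2 was -0.11 with luteolin and -0.91 with gefitinib, FGFR4 -0.37 with gefitinib and -0.38 with both drugs, and FGFR1 -0.70 with both drugs. With normexp, FGF5, FGFR3, FGF20 and SOS1 were 0.14, 0.76, 0.26 and 0.18 with gefitinib, and FGFR3 was 0.41 with both drugs. FGFR3 with gefitinib was 0.31 with the slide as a block and -0.19 to 0.17 without 1 array. FGF2 was -0.06 to 0.34 with luteolin and -0.07 to 0.33 with gefitinib, and FGF1 -0.94 to 0.01 with both drugs, without 1 array. HS2ST1 with both drugs was -0.91 as the median over probes. For scaling and file names the construction of the alternative sets the change. Normexp added 50 units to every signal, which by construction shrinks log2 differences between dim signals, and the FGFR3 probe read 3.98 to 26.7 units. How far that sets the normexp values was not tested. The HS2ST1 median differs by its choice of probes. For the others the cause was not tested.

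Of all genes called against DMSO, 53.9%, 52.3% and 61.1% were higher with luteolin, gefitinib and both drugs. These shares were 29.8%, 3.63% and 6.87% unscaled, 53.4%, 66.2% and 71.1% with normexp and 48.9%, 40.2% and 44.8% with quantile normalization. The median over all genes moved from 0.08, 0.22 and 0.16 to -0.17, -0.82 and -0.78 unscaled. Signals near the background limit FGFR2, FGFR3, FGF9, FGF20 and FGF21.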
